A study of Sus scrofa with 4 samples.

Results

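Genes of cholesterol synthesis and of its control by sterols were examined on 4 porcine oligonucleotide arrays, 1 for each condition. The 8 genes listed were HMGCS1, SQLE, LSS, FDFT1, MSMO1, INSIG1, SREBF2 and DHCR7, and their probes were taken where the gene name given on the array equaled the symbol. By this rule 3 of the 8 genes were found, with 8 probes, namely SQLE (3 probes), MSMO1 (3 probes) and INSIG1 (2 probes). These stand among 34853 gene names, 6392 of them symbols, on 43603 probes. The other 5 genes had no probe under their symbol. For 3 of them, LSS, SREBF2 and DHCR7, the written description of 4 further probes named the gene, and these probes are given separately. No probe was matched to HMGCS1, the enzyme that forms HMG-CoA, or to FDFT1, which joins farnesyl units into squalene, and both are not analysed here. Although the genes were proposed as a group of synthesis and uptake, none of the 8 is an uptake receptor, and uptake genes are described from a second list below.

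The PIP cells were porcine intramuscular preadipocytes, a single cell line derived from the longissimus thoracis muscle of 1 female Duroc pig, and they were kept without stimulation in medium with 10% fetal serum. Porcine mature adipocytes (pMA) were the same cells after 4 days in differentiation medium, which held 50 ng/mL insulin, 0.25 µM dexamethasone, 2 mM octanoate and 200 µM oleate. The stimulated pMA had the same 4 days of differentiation and received 100 µM serotonin (the labels write this dose per mL) or 2.5 µg/mL TNF-α for 12 h. Every condition is 1 array, so no difference has a replicate check or a p-value. The methods speak of RNA pooled from each group in a paragraph that names another array, and the paragraph on the porcine array does not mention pools, so whether an array holds a pool is not settled. As the RNA came from whole cultures, a change in the cells present cannot be told apart from a change of RNA per cell.

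Cells make cholesterol from acetyl-CoA through mevalonate, isoprenoids and squalene. SQLE turns squalene into its epoxide, LSS closes the ring to lanosterol, MSMO1 removes methyl groups at carbon C-4 and DHCR7 carries out a final reduction. The transcription factor SREBP-2, encoded by SREBF2, switches on most of these enzymes when sterols in the endoplasmic reticulum are low. INSIG1 is the anchor that holds the SREBP escort SCAP in that membrane when sterols are abundant, and it is itself a target of SREBPs. Adipocytes keep much of their free cholesterol at the surface of the lipid droplet.

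The probes decide which part of each transcript was measured, and the first 30 of the 60 bases of every probe found by symbol are shown 5′ to 3′ as the files give them, with the start position listed for the probe. Capitals mark runs of at least 12 bases that the probe shares with another probe of the same gene.
SQLE, start 949: atactcggagaatatttgcagccaggcggt
SQLE, start 2475: attCAGTATCTGAGACAAGTCATTGTGGGA
SQLE, start 2478: CAGTATCTGAGACAAGTCATTGTGGGATCT
MSMO1, start 995: tcttggcTGCAAAGTGATCAAAAGAACATT
MSMO1, start 1002: gTGCAAAGTGATCAAAAGAACATTaACAAC
MSMO1, start 1075: ttccatgaggaaactttaaaggacatgttg
INSIG1, start 818: ctctacatccgctcctggctcccgcgtatt
INSIG1, start 1651: gattgccttgtaaaaagaagagtgcgtgtg

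The SQLE probes at 2475 and 2478 are the same sequence shifted by 3 bases and share 57 of 60 bases. The MSMO1 probes at 995 and 1002 share 53 bases in 2 runs, the longer of 30 bases. Each of these pairs therefore measures 1 stretch of RNA and gives no second site. The SQLE probe at 949, the MSMO1 probe at 1075 and the 2 INSIG1 probes share no such run with another probe of their gene. Both overlapping SQLE probes hold AATAAA, the letters of the usual polyadenylation signal, as do 9.60% of all 43603 probes, and no other probe of the 3 genes does. The 8 probes thus read 6 separate stretches of 3 transcripts.

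The probes named only by description rest on weaker annotation. Those of LSS and SREBF2 carry the full name of the gene. The 2 DHCR7 probes belong to assembled consensus sequences described as partly similar to the bovine and the mouse gene. One of them holds TTTATT, the reverse complement of AATAAA, as do 4.17% of all probes, and the first 30 bases of both are shown because they did not move together in differentiation.
DHCR7, start 505: ggtcacattccagtcccagctttgggcctt
DHCR7, start 773: gggctcacgattctttattgagacgtacct

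Levels are log2 intensities of a probe relative to the 75th percentile of its own array, so that 0 is the 75th percentile. They are compared for 1 probe between arrays and not between probes, except in the marker lists below, where linear levels of several probes are summed. On the 4 arrays all 12 probes were well above background and none was saturated. The scanner program gave each spot of the bright probes an error of 0.14 on the log2 scale, which gives 0.20 for a log2 ratio. Probes spotted repeatedly on an array gave a standard deviation between 0.15 and 0.17 for a log2 ratio. Both cover technical noise within arrays and not the spread between cultures.

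INSIG1, the anchor of SCAP, was highest in PIP cells by both probes. The probe at 1651 had levels of 1.53 in PIP cells, 0.63 in pMA, 0.43 after serotonin and 0.97 after TNF-α. The probe at 818 had levels of 1.51 in PIP cells, 1.25 in pMA, 1.14 after serotonin and 1.19 after TNF-α. The range over the 4 arrays was thus 1.10 for the probe at 1651 and 0.37 for the probe at 818. They gave the same order from PIP cells through TNF-α-stimulated pMA to serotonin-stimulated pMA but placed unstimulated pMA differently, at the third rank and at the second.

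SREBF2, which encodes SREBP-2 and was named by description only, had levels of 4.28 in PIP cells, 4.17 in pMA, 3.72 after serotonin and 4.00 after TNF-α. It was lowest after serotonin, and the other 3 arrays lay within 0.28 of each other.

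SQLE, the squalene epoxidase and a second rate-controlling step of the pathway, was highest in PIP cells by all 3 probes. The probe at 2475 had levels of 4.22 in PIP cells, 3.97 in pMA, 3.67 after serotonin and 3.68 after TNF-α. The probe at 2478, which overlaps it, had levels of 4.19, 3.78, 3.61 and 3.63 in the same order. The probe at 949 had levels of -0.61 in PIP cells, -0.99 in pMA, -1.11 after serotonin and -1.18 after TNF-α. The range over the arrays was 0.56 to 0.58 for the 3 probes, and the 2 stimulated arrays differed from each other by at most 0.08 on every probe. SQLE thus followed the order of PIP cells, unstimulated pMA and stimulated pMA, with no separation of serotonin from TNF-α.

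LSS, the cyclase that follows SQLE, was matched by description and had levels of 4.42 in PIP cells, 4.43 in pMA, 3.94 after serotonin and 4.50 after TNF-α. On this scale only the serotonin array stood apart, and the other 3 lay within 0.08 of each other.

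MSMO1, the methyl sterol monooxygenase, had the widest range of the enzymes found by symbol. The probe at 1075 had levels of 2.95 in PIP cells, 2.41 in pMA, 1.92 after serotonin and 2.14 after TNF-α. The probe at 1002 had levels of 3.16, 2.61, 2.14 and 2.37 in the same order of arrays, and the probe at 995 had 3.05, 2.51, 2.16 and 2.36. All 3 probes gave the same order, with PIP cells highest, then pMA, TNF-α and serotonin. The range over the 4 arrays was 1.03, 1.02 and 0.89, with PIP cells at one end and serotonin-stimulated pMA at the other.

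DHCR7, again by description only, had 2 probes. The probe at 773 had levels of 0.84 in PIP cells, 0.50 in pMA, -0.05 after serotonin and 0.58 after TNF-α. The levels of the probe at 505 were -2.64 in PIP cells, -2.04 in pMA, -2.23 after serotonin and -1.97 after TNF-α. PIP cells were thus the highest array by one probe and the lowest by the other. On both probes serotonin-stimulated pMA lay below unstimulated and TNF-α-stimulated pMA.

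The place of PIP cells among the arrays depended on the scaling. Between serotonin-stimulated pMA and PIP cells the log2 ratio of MSMO1 was -1.03, -1.02 and -0.89 as scaled here, and -0.48, -0.48 and -0.35 when arrays were scaled to bright spike-in controls. For the INSIG1 probe at 1651 it changed from -1.10 to -0.56. SQLE moved to between -0.04 and 0.05, the INSIG1 probe at 818 to 0.18, LSS to 0.06 and SREBF2 to -0.02. On the spike-in scale LSS was thus lowest in PIP cells, with 0.43 for pMA against PIP cells.

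**Figure D1:**
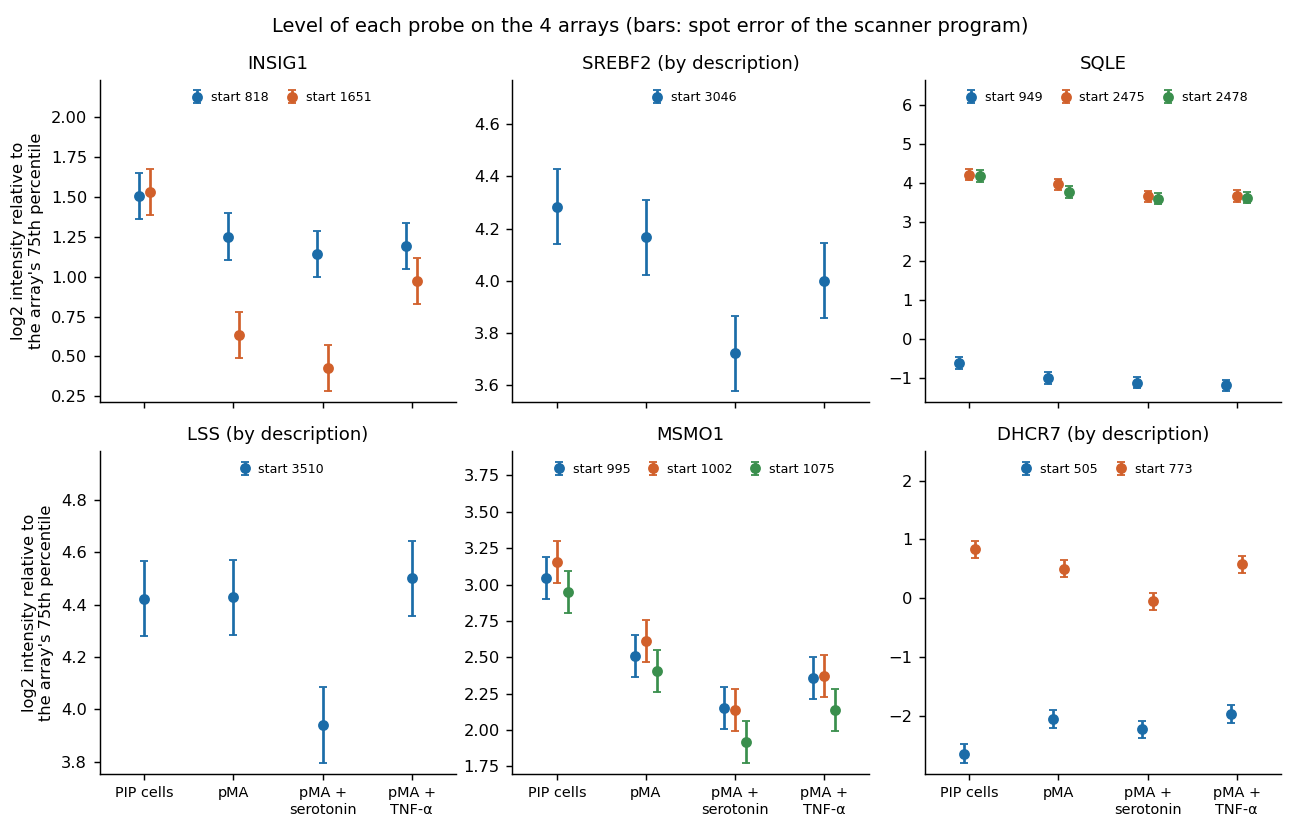
Level of each probe (log2 intensity relative to the array's 75th percentile, vertical axis, scaled separately for each gene) on the 4 arrays, with bars for the spot error of the scanner program, about 0.14 for most spots. With this scaling every probe of INSIG1, SQLE and MSMO1 is highest in PIP cells, and LSS, SREBF2 and the DHCR7 probe at 773 are lowest after serotonin.

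The first comparison asked what differed after differentiation, pMA against PIP cells. All 8 probes of the 3 genes found by symbol were lower in pMA, by log2 ratios from -0.90 to -0.25, where 45.9% of all probes with a ratio were below 0. MSMO1 differed by -0.54 on each of its 3 probes, a 1.46-fold lower level for the probe that represents the gene. SQLE differed by -0.41, -0.38 and -0.25. INSIG1 differed by -0.90 on the probe at 1651 and by -0.26 on the probe at 818, so the size rests on the stretch measured. Of the 8 probes, 5 differed by more than 2 times the spot error, as did 40.4% of all probes, and these were the 3 of MSMO1, 1 of SQLE and 1 of INSIG1.

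None of the 3 genes reached 2-fold by its representative probe. Of the 18635 gene names with a ratio, 9.92% were at least 2-fold higher and 3.56% at least 2-fold lower in pMA. For 2047 of these names the ratio is a lower bound, as 1 of the 2 arrays was dim. In every comparison the shares of all gene names and of all probes are over those with a ratio, lower bounds included. Their median log2 ratio was -0.26, that of all gene names was 0.12 and that of the gene symbols among them was 0.02. The direction in this comparison rested on the scaling of the arrays, since bright spike-in controls lay at 6.19 in PIP cells and 5.77 in pMA after scaling. When arrays were scaled to those spike-ins the median of all genes was 0.56, SQLE was 0.17 and INSIG1 0.16, above 0, and 4 of the 8 probes were still below 0, whereas MSMO1 stayed negative at -0.12. With scaling to the median the INSIG1 probe at 1651, which does not represent its gene, was at -1.25 and past 2-fold.

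The genes matched by description did not share the pattern. LSS differed by 0.01 and SREBF2 by -0.12, both less than the error of a ratio. DHCR7 differed by 0.59 on the probe at 505 and by -0.34 on the probe at 773. With spike-in scaling all 4 probes were above 0, with LSS at 0.43, SREBF2 at 0.30 and DHCR7 at 1.02 and 0.09.

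The second comparison set pMA after 12 h of serotonin against unstimulated pMA. All 8 probes found by symbol were lower after serotonin, by log2 ratios from -0.49 to -0.11, and so were all 4 probes found by description, by -0.55 to -0.19, where 47.8% of all probes with a ratio were below 0. MSMO1 differed by -0.49, -0.48 and -0.36 on its 3 probes, which is 1.39-fold lower for its representative probe. LSS differed by -0.49, SREBF2 by -0.44 and DHCR7 by -0.55 and -0.19. SQLE, at -0.30, -0.17 and -0.12, and INSIG1, at -0.21 and -0.11, lay within 2 times the spot error.

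Beyond 2 times that error were 2 of the 8 probes found by symbol, both of MSMO1, and 3 of the 4 found by description, beside 26.7% of all probes. The median of the 3 genes was -0.30 and that of all gene names 0.01. No member reached 2-fold, at which 2.08% of all gene names were higher and 4.74% lower. With spike-in scaling 6 of the 8 probes were below 0, and the INSIG1 probe at 818 was at 0.02 and the SQLE probe at 949 at 0.01. The representative probes of SQLE and MSMO1 kept their sign under every setting tried.

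The third comparison set TNF-α-stimulated against unstimulated pMA, and it shares the unstimulated array with the second. Of the 8 probes found by symbol 7 were lower after TNF-α, beside 49.8% of all probes, and the ratios ran from -0.29 to 0.34. MSMO1 differed by -0.26, -0.24 and -0.15 and SQLE by -0.29, -0.20 and -0.14. The INSIG1 probe at 1651 was the exception with 0.34, while the probe at 818 had -0.06. LSS (0.07), SREBF2 (-0.17) and DHCR7 (0.08 on both probes) were close to the unstimulated level.

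Under spike-in scaling 6 of the 8 probes were below 0, and INSIG1 was above 0. None of these probes differed by more than 2 times the spot error, whereas 14.6% of all probes did. The median of the 3 genes was -0.24 and that of all gene names 0.01. No member reached 2-fold, at which 2.21% of all gene names were higher and 1.34% lower after TNF-α.

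**Figure D2:**
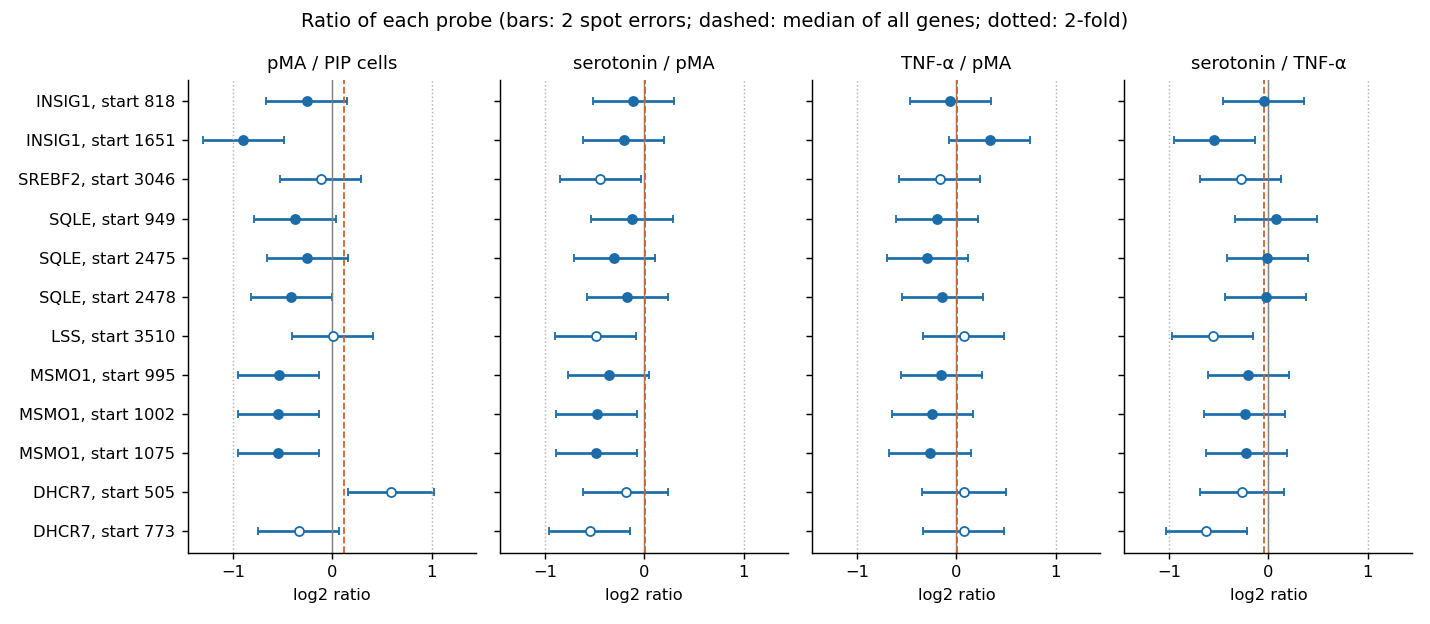
Log2 ratio of each probe (horizontal axis) in the 4 comparisons, with bars of 2 times the spot error, filled points for probes found by symbol and open points for probes found by description. Dashed lines are the median of all gene names and dotted lines mark 2-fold, and in the serotonin panel all 12 points are below 0.

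The direct comparison of both stimuli reuses the stimulated arrays of the preceding comparisons. Of the 8 probes found by symbol 7 were lower after serotonin than after TNF-α, beside 52.1% of all probes, with ratios from -0.54 to 0.08. SQLE did not separate the stimuli, with -0.03, -0.01 and 0.08. MSMO1 was lower after serotonin by -0.24, -0.22 and -0.20, near the error of a ratio. The INSIG1 probe at 1651 had -0.54 and the probe at 818 had -0.05. The 3 genes by description had -0.56 for LSS, -0.28 for SREBF2 and -0.63 and -0.26 for DHCR7.

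Under median scaling 4 of the 8 probes found by symbol were below 0 in this comparison, while all 4 probes found by description stayed below 0 under each of the 6 scalings and background corrections. One of the 8 probes exceeded 2 times the spot error, beside 27.2% of all probes. The median of the 3 genes was -0.05, that of all gene names -0.04, and no member reached 2-fold, at which 1.82% of gene names were higher and 5.08% lower after serotonin.

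A second list held 34 other genes of the pathway, of which 25 were on the array under their symbol and 24 had a ratio in every comparison. The other 9 had no probe under their symbol.

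In differentiation none of the 24 genes reached 2-fold by its representative probe, 10 were above and 14 below 0, and the median was -0.08. Of all gene names with a ratio 9.92% were at least 2-fold higher and 3.56% lower, and 10815 were above and 7820 below 0. Of the 5054 gene symbols with a ratio, the closer match to this list, 2582 were above and 2472 below 0. Among these symbols 375 were at least 2-fold higher and 244 lower. The 6 genes of the mevalonate and isoprenoid steps had a median of -0.27 with 5 below 0, whereas the 5 further genes of the sterol steps had a median of 0.04 with 2 below 0. The 4 genes of SREBP regulation had a median of -0.04 and the 8 genes of uptake and lysosomal egress a median of 0.14, each with as many above as below 0. SOAT1, which stores cholesterol as esters, had -0.09. Other probes did pass 2-fold, with SCARB1 ranging from 0.08 to 1.22 over 4 probes, LIPA from 0.49 to 1.02 over 4 and MYLIP from -1.02 to -0.13 over 2. By the representative probe LIPA, the lysosomal acid lipase, passed 2-fold with spike-in scaling and STARD4, a sterol carrier, with scaling to the median. Under spike-in scaling ACAT2, GGPS1, MYLIP and VLDLR, the genes followed through every setting, changed sign as SQLE and INSIG1 did.

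After serotonin 2.08% of all gene names were at least 2-fold higher and 4.74% lower, and 1 of the 24 genes reached 2-fold. This was VLDLR, a receptor that takes up triglyceride-rich lipoproteins, with a log2 ratio of -1.02 and 3 probes from -1.07 to -1.02. Its levels were 5.19 in PIP cells, 4.83 in pMA, 3.81 after serotonin and 4.92 after TNF-α, so that only the serotonin array was low. It fell short of 2-fold with median or spike-in scaling, quantile normalization and the normexp background, and its ratios lay between -1.03 and -0.90. With spike-in scaling the gene past 2-fold was GGPS1 instead, at 1.01 and in the other direction. In the list, 9 genes were above and 15 below 0, with a median of -0.07, beside 9761 above and 9332 below of all gene names. Of the gene symbols 2755 were above and 2331 below 0.

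The serotonin ratios of the enzymes did not run one way. The next genes were named after their values were seen. FDPS, which makes farnesyl diphosphate, had -0.72 on the gene's probe and 3 probes from -0.72 to -0.63. GGPS1, which draws farnesyl diphosphate into the non-sterol branch, had 0.89 on its 1 probe. Of the 5 further genes of the sterol steps 3 were above and 2 below 0. Those above 0 included CYP51A1, at 0.20 with 4 probes from 0.20 to 0.53, and HSD17B7, at 0.38 on its 1 probe. SREBF1, which encodes SREBP-1, had -0.47, and SCARB1, the HDL receptor, had -0.61 with 4 probes from -0.62 to -0.54. The medians by group were -0.12 for the 6 genes of the mevalonate and isoprenoid steps, 0.01 for the 5 of the sterol steps, -0.03 for the 4 of SREBP regulation and -0.14 for the 8 of uptake and lysosomal egress.

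After TNF-α 2.21% of all gene names were at least 2-fold higher and 1.34% lower, and 1 of the 24 genes reached 2-fold. This was MYLIP, the ubiquitin ligase that marks lipoprotein receptors for degradation, with -1.43 and 2 probes from -1.43 to -1.25. Its levels were 0.44 in PIP cells, 0.31 in pMA, 0.13 after serotonin and -1.12 after TNF-α. On this representative probe only the TNF-α array was low, whereas the other probe was already lower in pMA than in PIP cells, at -1.02. In the list, 11 genes were above and 13 below 0, and the median was -0.02, beside 10041 above and 9744 below of all gene names. Of the gene symbols 2409 were above and 2812 below 0. By group the medians were -0.04 for the mevalonate and isoprenoid steps, 0.12 for the sterol steps, -0.10 for SREBP regulation and -0.14 for uptake and lysosomal egress.

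Between serotonin and TNF-α 4 of the 24 genes reached 2-fold, with 2 higher and 2 lower after serotonin. Of all gene names 1.82% were at least 2-fold higher and 5.08% lower after serotonin. ACAT2, the thiolase that supplies acetoacetyl-CoA, had -1.12. Its levels were 1.23 in PIP cells, 0.88 in pMA, 0.28 after serotonin and 1.40 after TNF-α, on opposite sides of unstimulated pMA. VLDLR had -1.11 with 3 probes from -1.28 to -1.01. GGPS1 had 1.03 and MYLIP 1.25. ACAT2 and GGPS1 each rest on 1 probe. VLDLR fell short of 2-fold with scaling to the median, at -0.99, and GGPS1 with the normexp background, at 0.86, whereas ACAT2 and MYLIP stayed past it under every setting tried.

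**Figure D3:**
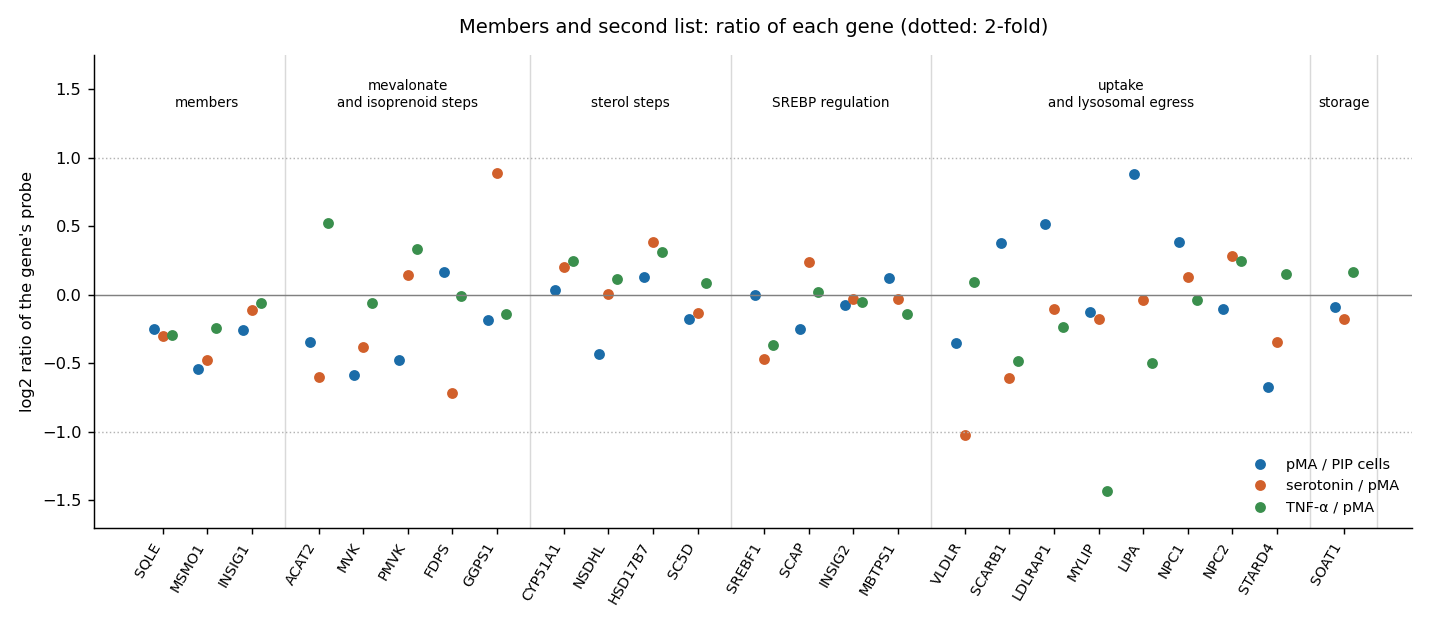
Log2 ratio of the representative probe of each gene (vertical axis) for the 3 members found by symbol and 22 of the 24 genes of the second list, grouped by role, with 1 color for each of 3 comparisons (pMA against PIP cells, and serotonin and TNF-α against pMA) and dotted lines at 2-fold. In these 3 comparisons VLDLR after serotonin and MYLIP after TNF-α are the points past 2-fold, and serotonin against TNF-α is not drawn.

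Genes with a profile most like that of the members were sought among 4730 symbols well above background on all 4 arrays. The centered profile of the 3 members was 0.34 in PIP cells, 0.04 in pMA, -0.22 after serotonin and -0.20 after TNF-α. The 5 most similar by root mean square difference over the 4 arrays were NSUN3 (0.018), SRP72 (0.025), ETV6 (0.026), YBX3 (0.033) and KIAA2013 (0.037). Of the second list, 0 genes were among the 100 most similar. As these 100 are a small part of the 4730 symbols, this count says little about so short a list. As a profile has 4 points, each from 1 array, near matches among this many symbols are given as a description only.

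The cell type given by the labels was checked against marker lists. Of 10 adipocyte markers 7 were well above background in PIP cells, in pMA and after serotonin, and 8 after TNF-α. Their summed linear level, relative to the 75th percentile, was 3.16 in PIP cells, 16.2 in pMA, 39.4 after serotonin and 22.9 after TNF-α. Such a sum is set by the brightest probes. After serotonin these were PLIN2, at a log2 level of 4.42, and LPL, at 3.41, so the sum does not show a rise of the whole list. Higher in pMA than in PIP cells was CD36, a fatty acid transporter (log2 ratio 5.17, 4 probes from 1.19 to 5.17). So were CIDEC (3.87, 2 probes from 0.75 to 3.87) and PLIN2 (3.13) of the lipid droplet and the regulator PPARG (1.07). The lipid carrier FABP4 was at least 8.48-fold higher, whereas LPL (0.37) and LEP (0.31) differed less. After serotonin LPL (2.41), CD36 (1.47) and PLIN2 (1.00) were higher than in unstimulated pMA, whereas FABP4 was lower (-2.77) and PPARG was at -0.08. The droplet coat gene PLIN1 was not well above background on any array. ADIPOQ, the adiponectin gene, was so in PIP cells only, and CEBPA only after TNF-α, so these 3 markers were dim in unstimulated pMA.

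Markers of other cells moved between arrays as well. The summed level of 5 preadipocyte or fibroblast markers ran from 401 to 526, mostly from VIM, with 3 to 5 of them well above background. For 3 macrophage markers it ran from 1.61 to 3.101 with CD163 dim throughout, for 4 endothelial markers from 0.48 to 1.58 with CDH5 dim, and for 5 skeletal muscle markers from 6.97 to 12.3 with MYOD1 and MYF5 dim. The serotonin array had the lowest sum of the fibroblast, endothelial and muscle lists, and the members were lower on that array as well. The log2 ratios to unstimulated pMA were -1.41 for COL1A1, -0.88 for THY1 and -0.34 for VIM. They were -1.46 for PECAM1 (4 probes from -1.46 to -0.44) and -0.76 for KDR. In the muscle list DES had -1.02 (4 probes from -2.59 to -0.55), MYOG -0.01 and PAX7 0.39. For 4 epithelial and 3 hepatocyte markers the summed level stayed at or below 0.183. The 4 proliferation genes summed to 46.8 in PIP cells, 22.9 in pMA, 30.7 after serotonin and 24.2 after TNF-α. MKI67 made up most of each sum. CCNB1 was at 3.26 in PIP cells and -1.65 in pMA. Against unstimulated pMA CCNB1 differed by -1.05 after serotonin and by 1.80 after TNF-α. In the same order CDK1 differed by 0.35 and 1.52, PCNA by 0.48 and 0.39 and MKI67 by 0.43 and -0.06. With the scaling used here all 4 genes were lower in pMA than in PIP cells, as were SQLE, MSMO1 and INSIG1. With spike-in scaling SQLE was at 0.17 and INSIG1 at 0.16, above 0. MKI67 differed by -0.41 where the spike-ins lay at 6.19 in PIP cells and 5.77 in pMA, so its direction rests on the scaling as well. The part of proliferation or of any marker group in the members' levels was not tested.

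**Figure D4:**
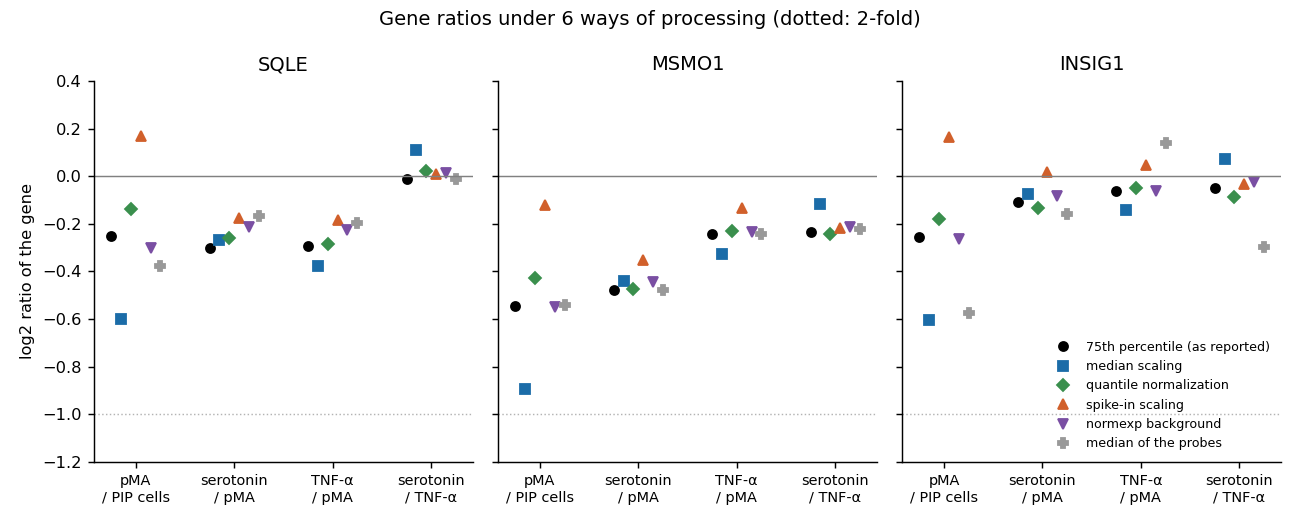
Log2 ratio of SQLE, MSMO1 and INSIG1 (vertical axis) in the 4 comparisons under 6 ways of processing, 1 symbol for each, with a dotted line at 2-fold lower. MSMO1 is below 0 throughout. Under spike-in scaling SQLE and INSIG1 are above 0 in differentiation and INSIG1 also after both stimuli, and between the stimuli SQLE lies on both sides of 0.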

How the data were processed

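The 4 conditions of 1 porcine cell line were measured on the arrays of 1 slide. The deposited intensity values are the background-subtracted signals in 1 color, Cy3, written by Agilent Feature Extraction 10.7.3.1. One paragraph of the methods speaks of a mouse array and a later one of porcine arrays in 2 colors, whereas the scanner files are of a porcine array in 1 color. The deposited value table holds a linear ratio, the same intensity divided by 1 constant per array (496.73, 454.58, 539.9 and 534.77 for PIP cells, pMA, serotonin and TNF-α), not log-transformed and not centered. Its column medians were 0.0581, 0.0766, 0.0735 and 0.0797.

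Control and outlier spots were dropped (12, 1, 3 and 4 outliers in that order). The log2 intensity was taken relative to the 75th percentile of the array, which was 515, 479, 566 and 559, and 56.5% to 66.0% of spots were well above background. Repeated spots were averaged, and the probe brightest on average stood for its gene. A ratio with 1 dim side was kept as a lower bound, taken against the faintest signal well above background of that array. The cutoff was 2-fold, from the methods. With 1 array per condition no test was run, and the number of arrays limits the precision.

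The members and lists were chosen with earlier results of these data known. Named were the members, every gene of the second list at least 2-fold different and the 5 symbols nearest in profile. SOAT1 was named as the only gene of its group, and LIPA and STARD4 because they passed 2-fold under another scaling. FDPS, SREBF1, SCARB1, CYP51A1 and HSD17B7 did not reach 2-fold by the gene's probe and were named after their values were seen. Some genes of the second list enter its counts and medians but are not reported here. Python 3.11.15, numpy 2.4.6, pandas 2.3.3, R 4.3.3 and limma 3.58.1 (normexp, offset 50) were used, and the ratios were tested on simulated data. The alternatives were scaling to the median or to spike-ins, quantile normalization, normexp background, the deposited table, the median of the probes, no filter, a filter on all 4 arrays, a 1.5-fold cutoff and adding the genes matched by description. The build of the array annotation is not given in the sources used here, so no coordinates are printed.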

Additional observations from a re-analysis of the deposited data

How the results depend on the processing

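The count of members at least 2-fold different was 0 in all 4 comparisons under every alternative run, a 1.5-fold cutoff included, by the probe that represents each gene. The INSIG1 probe at 1651, which does not, was at -0.90 for differentiation, past 1.5-fold, and at -1.25 with scaling to the median, past 2-fold. Of the probes found by description, the DHCR7 probe at 505 was at 0.59 for differentiation, past 1.5-fold, and at 1.02 with spike-in scaling, past 2-fold. The DHCR7 probe at 773 was at -0.63 for serotonin against TNF-α, past 1.5-fold. The median log2 ratio of the members for pMA against PIP cells was -0.26 and became -0.61 with scaling to the median, 0.16 with scaling to spike-ins and -0.54 with the median of the probes. The median of all genes moved from 0.12 to -0.22 and 0.56 with the first pair of scalings, so the shift was common to all genes. For serotonin against TNF-α the members' median was -0.05 and became -0.22 with the median of the probes and -0.26 with the 3 genes matched by description, an alternative chosen after seeing the data. With those genes the median for serotonin against unstimulated pMA became -0.46 from -0.30. The cause of these differences between probes and genes was not tested. The other 70 values of the members' counts and medians stayed at 0 or moved by less than the technical spread. By these probes the ratio of MSMO1 kept its sign in all 4 comparisons, SQLE in both comparisons with unstimulated pMA, and INSIG1 in none. No paired analysis was possible because each condition has 1 array, and no replicate could be left out.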
